A study of Mus musculus with 40 samples.

Results

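The clustered protocadherins are 58 genes of mouse chromosome 18, chosen as the rows of the deposited count table whose symbols carry an alpha, beta or gamma cluster name, and they make up 58 of the 24060 gene rows. They comprise 14 alpha, 22 beta and 22 gamma genes, and 5 of them are the C-type genes *Pcdhac1*, *Pcdhac2*, *Pcdhgc3*, *Pcdhgc4* and *Pcdhgc5*. By RefSeq on the GRCm38.p6 build, the alpha genes lie at chr18:36930285-37188897, the beta genes at chr18:37264998-37521419 and the gamma genes at chr18:37661775-37841873, all on the + strand. *Pcdhgb8* is annotated as a transcribed pseudogene and the other 57 as protein coding.

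Clustered protocadherins are transmembrane cadherin-family proteins that bind like isoforms on neighbouring cells. Each alpha and gamma gene has its own large first exon, which encodes the extracellular, transmembrane and membrane-near part, joined to short exons that the whole cluster shares and that encode a common cytoplasmic end. The beta genes are single exons. Promoter choice under CTCF, cohesin and DNA methylation lets a neuron express a small mixture of isoforms, which serves self-recognition of its processes, while C-type genes are expressed more uniformly. Gamma protocadherins are also made by astrocytes.

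RNA was sequenced in 40 libraries of mouse striatum, in 10 groups of 4. RiboTag is an HA-tagged ribosomal protein, RPL22, delivered by AAV to the dorsal striatum, so that RNA on tagged ribosomes can be immunoprecipitated (IP) and set against the input RNA of the same lysate. The neuron cohort were C57/BL6NTac mice given the hSYN1 RiboTag at 6 weeks of age (4 IP and 4 input libraries). The astrocyte cohort were C57/BL6NTac mice labelled only as controls (4 IP and 4 input libraries), taken as the GfaABC1D RiboTag from the study's methods, also at 6 weeks. The SAPAP3 cohort were C57/BL6J wild-type (WT) mice and mice of that background with a *Dlgap3* knockout (SAPAP3 KO), with 4 IP and 4 input libraries of each, injected at 4.5 months of age. The sources used here give no cell type for the IP of that cohort. The last 8 libraries are bulk striatal RNA of WT and KO mice, 4 of each and labelled C57/BL6NTac, and 1 animal number stands on both a WT and a KO bulk library.

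Libraries held 23438112 to 84109800 counted reads, and all 58 genes had counts in every library, the lowest being 6. The 10 astrocyte markers were all enriched in astrocyte IP, with a summed level of 32035 to 34928 CPM (counts scaled to a common library size) against 2844 to 3113 in its input, and in neuron IP 9 of 9 tested neuronal markers passed the test as higher. In the WT IP of the SAPAP3 cohort the 10 astrocyte markers were again all enriched, at a sum of 22770 to 32224 CPM against 5214 to 6666, and 2 of 6 oligodendrocyte markers were more than doubled. Of 3 ependymal and choroid plexus markers 2 were more than doubled there too, and 2 of 3 markers of oligodendrocyte precursors passed as higher. In astrocyte IP 2 of 2 tested ependymal and choroid plexus markers were more than doubled, and 2 of 3 precursor markers passed as higher. All 6 microglial and all 5 endothelial markers passed as lower in both of these IPs. No marker on these lists was at 0 throughout a group. All 8 libraries of the astrocyte cohort had Y-linked reads and at most 1 *Xist* read, whereas all 8 of the neuron cohort had *Xist* reads and no Y-linked reads, so sex, cohort, virus and cell type cannot be told apart between those IPs. In bulk-type RNA, fewer cells of a type and less RNA per cell cannot be told apart either. Library sizes for CPM were scaled by the TMM method throughout.

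In all input and bulk groups *Pcdhgc5*, *Pcdhgc3* and *Pcdhac2*, all of the C type, were the 3 genes with the highest level per length, in that order. Levels per length are CPM per kb of exon that no other gene shares, since alpha and gamma genes share their last exons. In bulk WT striatum *Pcdhgc5* had 43.9 CPM per kb, *Pcdhgc3* 30.2 and *Pcdhac2* 16.7, and the lowest gene was *Pcdhb1* at 0.199. The median gamma gene had 5.97 CPM per kb there, the median beta gene 2.39 and the median of 13 alpha genes 1.52. In neuron IP the order of the first 3 was *Pcdhgc5* at 48.0 ± 2.6, *Pcdhac2* at 25.8 ± 1.4 and *Pcdhgc3* at 19.0 ± 1.0 CPM per kb (SD, n = 4), each apart from the next by more than its spread. In astrocyte IP the first was *Pcdhgc3* at 186 ± 4.8 CPM per kb, then *Pcdhgc5* at 52.2 ± 1.2, followed by *Pcdhgb6* and then *Pcdhga11* at 19.5 ± 1.0, which did not differ beyond their spread. *Pcdha4* has no level per length, because its first exon overlaps an annotated readthrough gene that was listed at 0 counts in all libraries, and its own counts were 6 to 66.

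**Figure D1:**
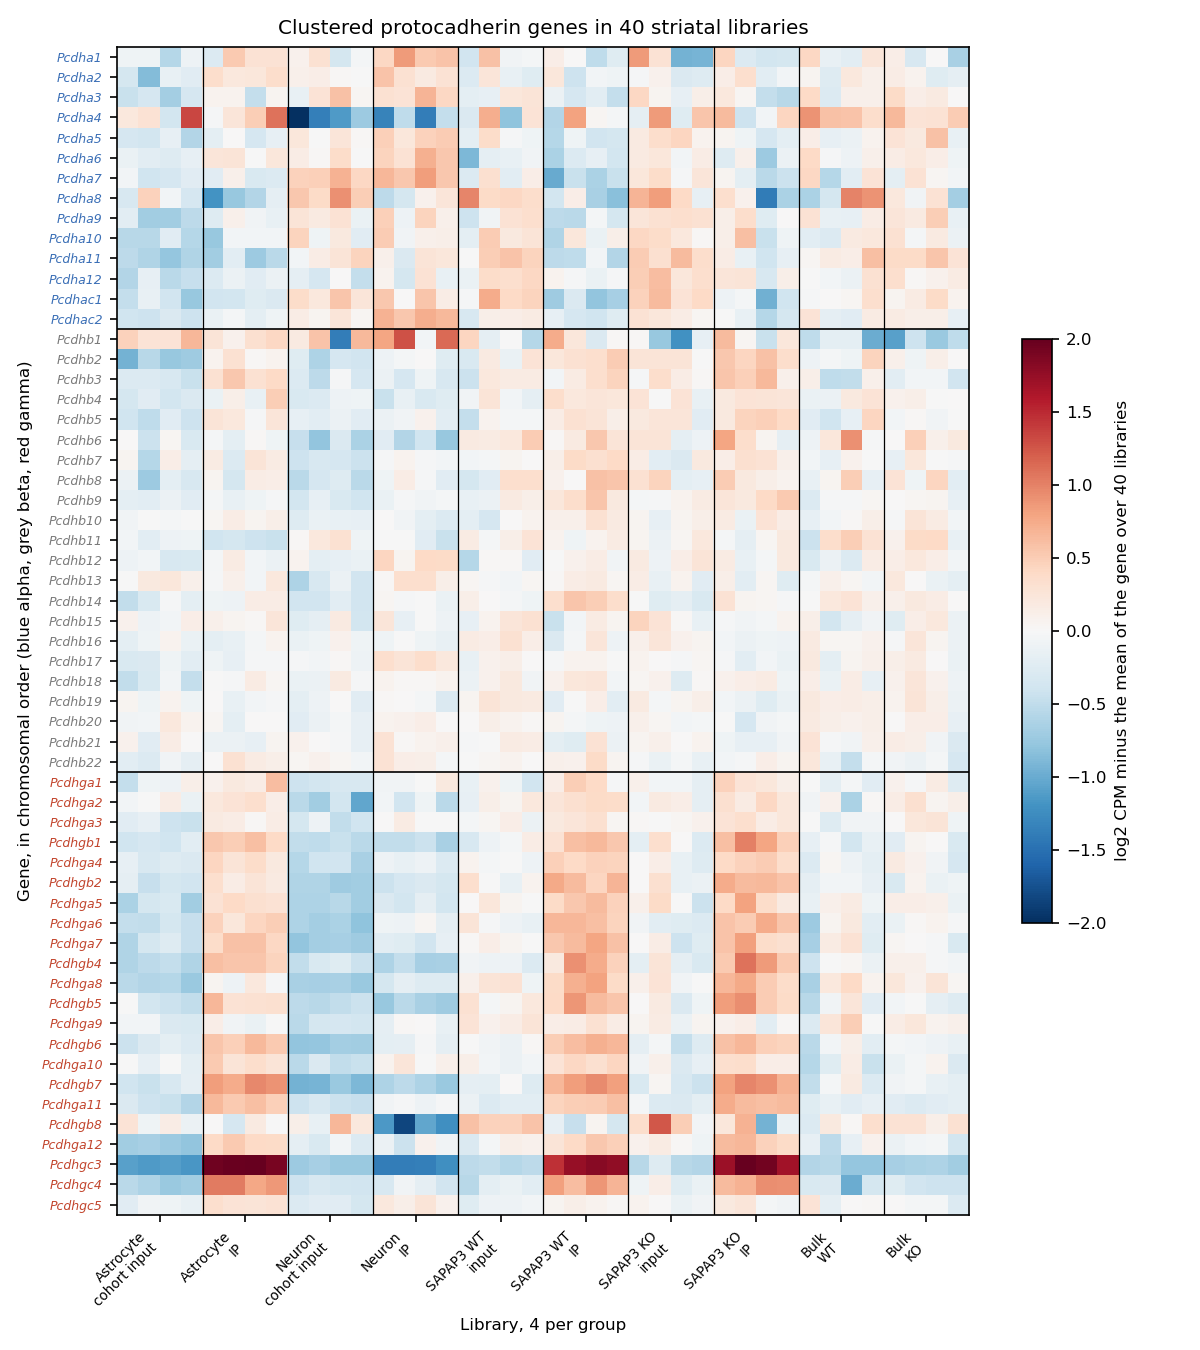
Each row is 1 of the 58 genes in chromosomal order and each column 1 of the 40 libraries, 4 per group. Colour gives the log2 CPM minus the mean of that gene over all libraries, with the scale ending at -2 and 2. The *Pcdhgc3* row is red in the astrocyte IP and in both IPs of the SAPAP3 cohort, and most gamma rows are blue in neuron input.

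The first question was which of these genes are carried on astrocyte ribosomes above the level of whole striatum. *Pcdhgc3*, a C-type gamma gene, was the gene with the highest enrichment. Its level was 476, 485, 488 and 461 CPM in the 4 astrocyte IP libraries and 58.3, 56.4, 57.4 and 55.3 in the inputs. The groups lay far apart, 8.01-fold, with a log2(FC) of 3.00 ± 0.03 (SE, n = 4) and an adjusted p of 1.5e-12 (edgeR's quasi-likelihood test, adjusted after Benjamini and Hochberg over all genes tested). *Pcdhgc3* made up 12.4 to 13.0% of all gamma counts in input and 42.3 to 44.0% in astrocyte IP. Without it, the gamma genes together still stood at 617 to 649 CPM in IP against 380 to 401 in input, with no overlap.

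*Pcdhgc4*, the C-type gene beside it, measured 29.3, 29.5, 24.5 and 26.0 CPM in astrocyte IP against 9.84, 9.33, 8.57 and 8.84 in input. The libraries did not overlap, and the log2(FC) was 1.51 ± 0.08 (edgeR's quasi-likelihood test, adjusted p = 7.9e-09). *Pcdhgc5*, the last gene of the cluster, measured 139, 134, 132 and 135 CPM in IP against 94.4, 105, 104 and 99.2 in input. It too was apart without overlap, but by a log2(FC) of only 0.36 ± 0.04 (adjusted p = 6e-06 by edgeR). Of the C-type genes of the alpha cluster, *Pcdhac2* measured 42.5, 45.6, 41.0 and 44.1 CPM in IP against 35.7, 35.2, 38.5 and 35.4 in input. Its log2(FC) of 0.19 ± 0.04 passed the test (adjusted p = 0.0021 by edgeR) but was -0.03 when libraries were scaled by total counts alone. *Pcdhac1* had a log2(FC) of 0.04 ± 0.14 and did not pass.

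In all, 5 of the 58 genes were called higher in astrocyte IP, at an adjusted p under 0.05 and a log2(FC) above 1, and 0 lower. Over all 15476 genes tested 13.4% were called higher and 13.5% lower. The other 3 called were *Pcdhgb7* at 1.13 ± 0.07, *Pcdhga12* at 1.07 ± 0.05 and *Pcdhgb4* at 1.02 ± 0.06, which are ordinary gamma isoforms of the A and B subfamilies. These 3 fell below the limit, to 0.91, 0.85 and 0.80, with scaling by total counts alone, which lowered the median of all genes from -0.02 to -0.25. By adjusted p alone 30 of 58 genes were higher and 2 lower, against 39.2% and 41.2% of all genes, and with total counts the split was 20 higher and 12 lower.

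The gamma cluster held most of these. Of its 22 genes 20 passed as higher and 0 as lower, with a median log2(FC) of 0.69 against -0.02 for all genes, and the others were *Pcdhga9* at 0.08 and *Pcdhgb8* at -0.15. With total counts 16 passed as higher and 1 as lower. By subfamily the median was 0.54 for 12 A-type genes and 0.77 for 7 B-type genes. Of 14 alpha genes 4 passed as higher and 1 as lower, with a median of 0.18, and with total counts 1 and 1. Of 9 neuronal markers 7 passed as lower in these IPs and 1 as higher, with a median of -0.86, and their part in the alpha values was not tested. The lowest was *Pcdha8*, an alpha isoform of few reads, at -0.69 ± 0.26 (adjusted p = 0.027 by edgeR). Its counts were 24 to 45 per IP library and 28 to 55 per input. In the fits without input replicate 2, IP replicate 1 or IP replicate 2, 0 alpha genes passed as lower. Of 22 beta genes 6 passed as higher and 1 as lower, with a median of 0.07. This direction turned with total counts, by which 3 beta genes passed as higher and 10 as lower. The beta gene with the highest value was *Pcdhb2*, at 3.54, 4.15, 3.41 and 3.53 CPM in IP against 1.75, 2.30, 2.00 and 2.07 in input, and its log2(FC) was 0.78 ± 0.12. *Pcdhb2*, *Pcdhb3*, *Pcdhb4* and *Pcdhb5*, which stand next to each other in the cluster, all passed as higher, but with total counts *Pcdhb4* had 0.13 (adjusted p = 0.44 by edgeR) and did not pass. The lowest was *Pcdhb11* at -0.36 ± 0.07.

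**Figure D2:**
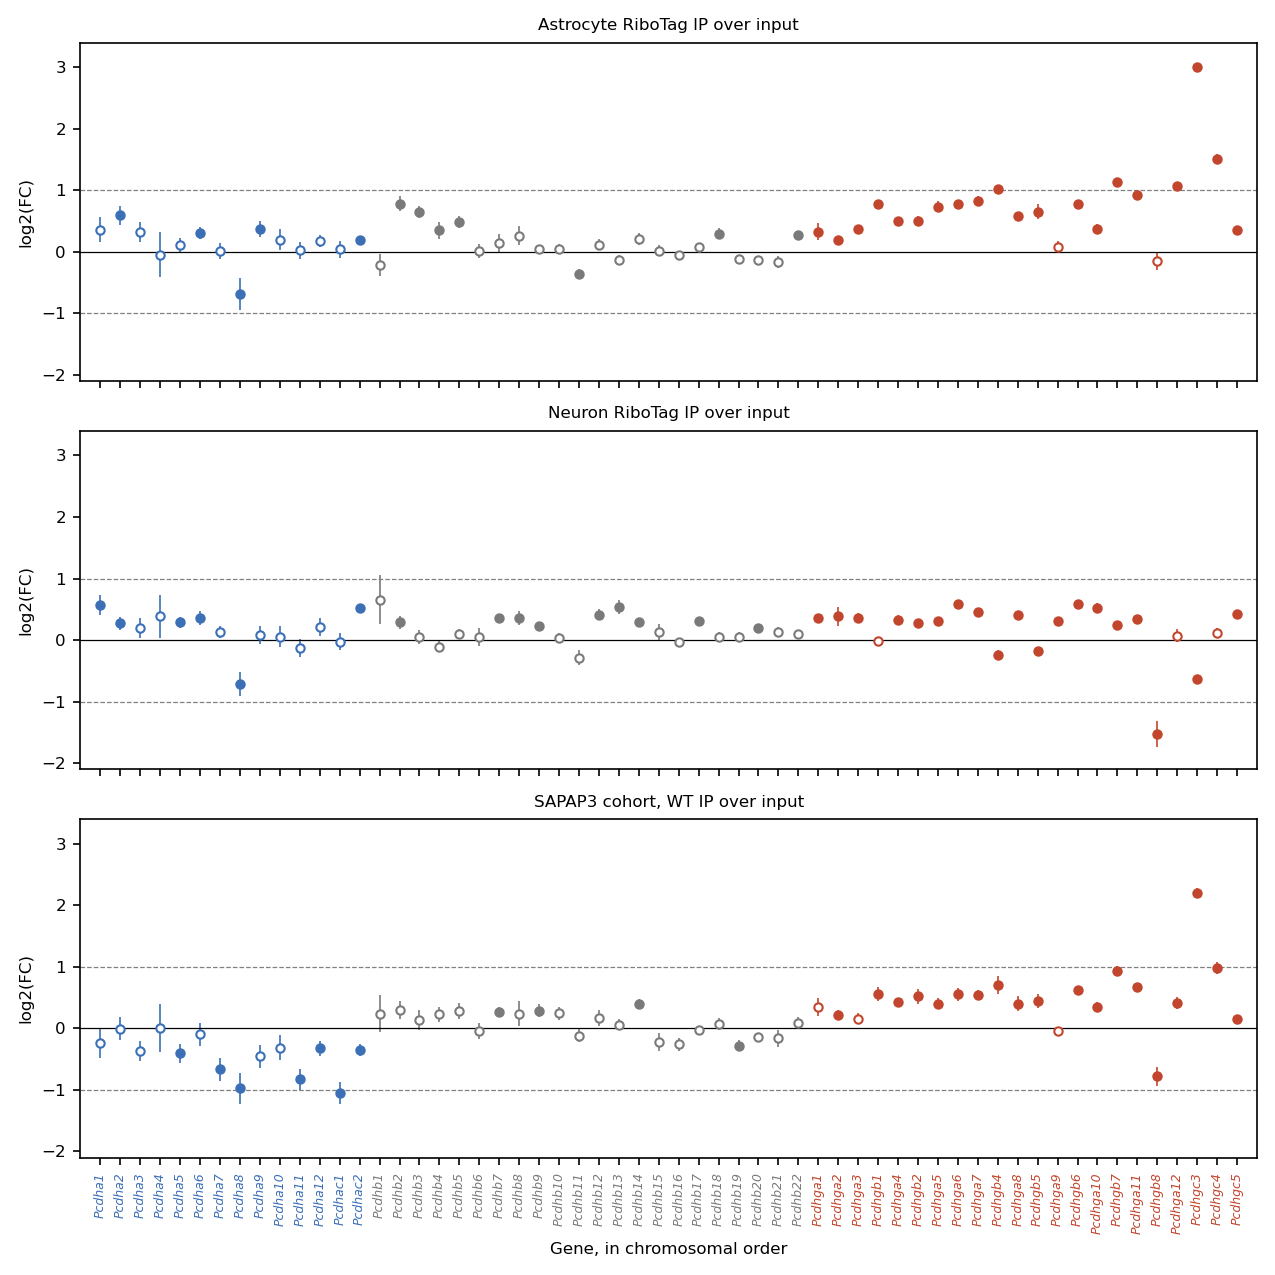
Log2(FC) of IP over input for the 58 genes in chromosomal order (blue alpha, grey beta, red gamma) in 3 cohorts, with bars of 1 SE. Filled points passed an adjusted p of 0.05 and dashed lines mark a log2(FC) of -1 and 1. *Pcdhgc3* stands at 3.00 in astrocyte IP, -0.64 in neuron IP and 2.20 in the WT IP of the SAPAP3 cohort.

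The same question was put to neuronal ribosomes. No member was enriched past a log2(FC) of 1 there, and *Pcdhgc3* was lower in IP than in input. It measured 47.2, 47.1, 48.1 and 52.6 CPM in neuron IP and 74.9, 78.0, 73.7 and 73.6 in input. Every IP library lay below every input library, with a log2(FC) of -0.64 ± 0.04 (edgeR's quasi-likelihood test, adjusted p = 9e-07). Its share of gamma counts was 16.9 to 17.9% in input and 9.32 to 10.8% in neuron IP. The summed level of astrocyte markers also fell between those libraries, from 5135 to 5467 CPM in input to 3389 to 3723 in IP. Of these 10 markers 7 passed as lower and 1 as higher, with a median of -0.59. The markers of other glia and of vessels fell further. All 3 markers of oligodendrocyte precursors were called lower with a median of -2.49, all 6 of oligodendrocytes with -1.79, all 6 of microglia with -4.55 and all 5 of endothelial cells with -3.73. The part of RNA from these cells in the *Pcdhgc3* values was not tested.

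*Pcdhac2* was the C-type gene with the clearest neuronal enrichment, at 75.6, 68.3, 77.5 and 73.4 CPM in neuron IP against 51.9, 48.6, 55.3 and 47.9 in input. The groups did not overlap, with a log2(FC) of 0.52 ± 0.06 (adjusted p = 1.8e-05 by edgeR). It took up 56.1 to 59.1% of all alpha counts in neuron IP and 50.1 to 51.4% in input. *Pcdhgc5* had 128, 120, 132 and 118 CPM in neuron IP against 91.5, 94.7, 94.8 and 86.5 in input, also without overlap, and a log2(FC) of 0.42 ± 0.05. *Pcdhgc4* at 0.12 ± 0.07 and *Pcdhac1* at -0.03 ± 0.14 did not pass.

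Only 1 of the 58 genes was called in neuron IP, *Pcdhgb8*, the gamma pseudogene, and it was lower. It measured 1.05, 0.655, 1.14 and 0.995 CPM in IP against 2.53, 2.09, 3.70 and 2.71 in input, on 47 to 88 and 126 to 205 counts. The log2(FC) was -1.53 ± 0.22 (adjusted p = 0.00011 by edgeR), and 6.68% of the 75-base stretches of its own exon also occur elsewhere on the chromosome, so part of its reads may be uncertain. Over all 16198 genes 15.8% were called lower and 0.42% higher. By adjusted p alone 29 genes were higher and 5 lower, against 35.5% and 35.9% of all genes, and with total counts the split was 10 higher and 9 lower.

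Of 12 A-type gamma genes 11 passed as higher in neuron IP, with a median log2(FC) of 0.35 and a highest value of 0.59 ± 0.06 for *Pcdhga6*, whereas of 7 B-type genes 3 passed as higher and 3 as lower. With total counts 5 A-type genes passed as higher and 0 as lower, and 1 B-type gene as higher and 4 as lower. The B-type genes lower in neuron IP were *Pcdhgb8*, *Pcdhgb4* at -0.24 ± 0.08 and *Pcdhgb5* at -0.18 ± 0.07. Of the beta genes 9 passed as higher and 0 as lower, but with total counts 2 as higher and 3 as lower. *Pcdhb13*, a single-exon beta isoform, measured 7.95, 9.81, 9.84 and 8.49 CPM in IP against 5.07, 6.27, 7.21 and 6.00 in input, with a log2(FC) of 0.54 ± 0.11. *Pcdhb17*, the beta gene with the most reads, stood at 0.31 ± 0.05. Of the alpha genes 5 passed as higher and 1, *Pcdha8* at -0.71 ± 0.20, as lower, with *Pcdha1* highest at 0.57 ± 0.16, and with total counts 1 and 1. *Pcdha8* was thus the lowest alpha gene against input in both IPs.

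**Figure D3:**
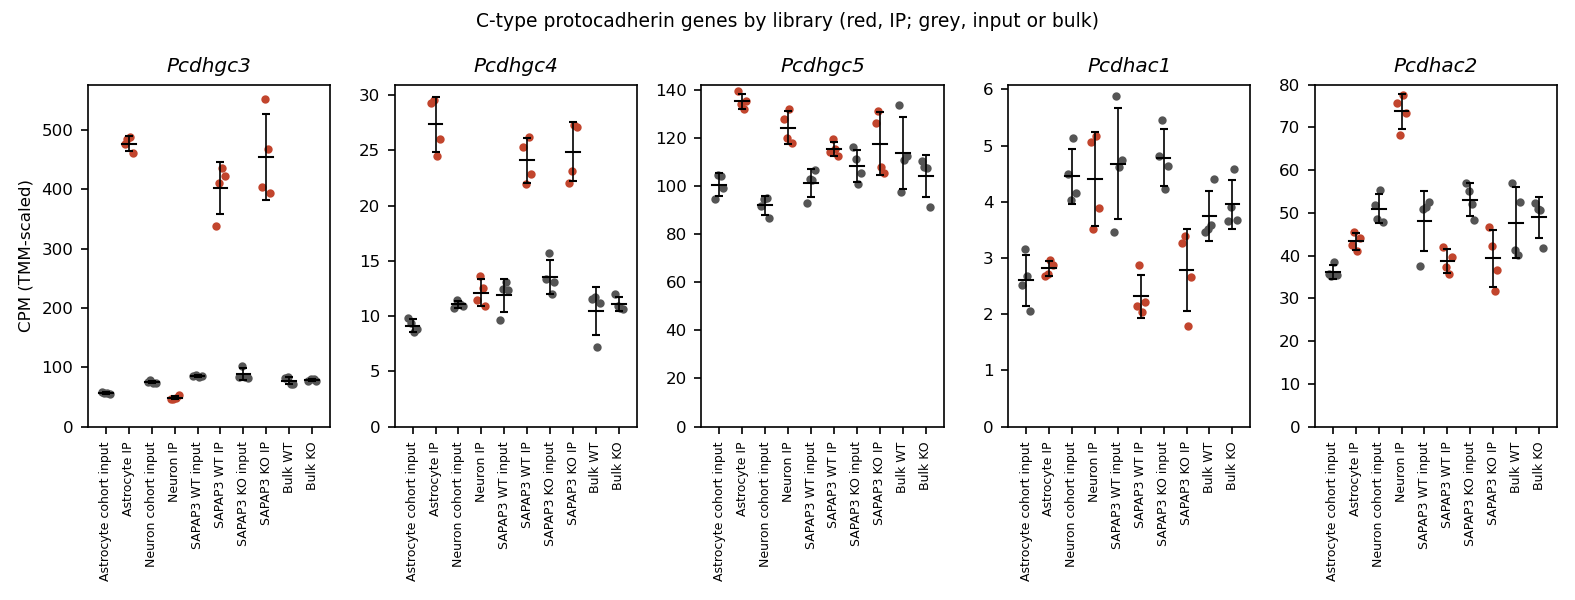
CPM of the 5 C-type genes in each of the 40 libraries, with the mean and SD of the 4 libraries of a group (red, IP; grey, input or bulk). *Pcdhgc3* lies between 339 and 552 CPM in the astrocyte and SAPAP3 IPs and between 47.1 and 103 in all other libraries, whereas *Pcdhac2* is highest in neuron IP.

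The same IP libraries were then set against each other. All 22 gamma genes had lower values in neuron IP, 19 of them past the test, and 13 of 14 alpha genes had higher values, 7 of them past the test. *Pcdhgc3* was 9.82-fold lower in neuron IP, at a log2(FC) of -3.30 ± 0.05 (edgeR's quasi-likelihood test, adjusted p = 8.3e-12). *Pcdhgb7* measured 11.1, 11.7, 11.1 and 10.1 CPM in neuron IP and 30.3, 28.5, 33.2 and 31.5 in astrocyte IP. No libraries overlapped, with a log2(FC) of -1.49 ± 0.06 (adjusted p = 1.1e-08 by edgeR). *Pcdhgb4* had 7.32, 8.07, 7.12 and 7.21 CPM against 17.1, 16.6, 16.6 and 15.2, again without overlap, and a log2(FC) of -1.14 ± 0.06.

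Of the 58 genes 8 were called lower in neuron IP and 0 higher, where 19.4% and 8.39% of the 15468 genes tested were. The 8 also included *Pcdhgb8* at -1.25 ± 0.19, *Pcdhgc4* at -1.18 ± 0.09, *Pcdhgb5* at -1.06 ± 0.10 and *Pcdhgb1* at -1.01 ± 0.07, so that 5 of the 7 B-type genes but 0 of 12 A-type genes passed the fold limit. *Pcdhgb1* and *Pcdhgb5* lie at the limit and were not called under 3 and 1 of 13 alternatives. By adjusted p alone 25 genes were lower and 10 higher, against 39.4% and 40.3% of all genes. In the gamma cluster these were 19 lower and 0 higher with a median of -0.60, in the alpha cluster 1 lower and 7 higher (11 with total counts) with a median of 0.43, and in the beta cluster 5 lower and 3 higher with a median of -0.02. With total counts the beta split turned to 2 lower and 5 higher. *Pcdhac2* at 0.76 ± 0.05 and *Pcdha7* at 0.82 ± 0.12 were the alpha genes with the clearest and the highest difference. In the beta cluster *Pcdhb3* was lowest at -0.60 ± 0.10 and *Pcdhb1*, with few reads, highest at 0.59 ± 0.27 without passing.

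**Figure D4:**
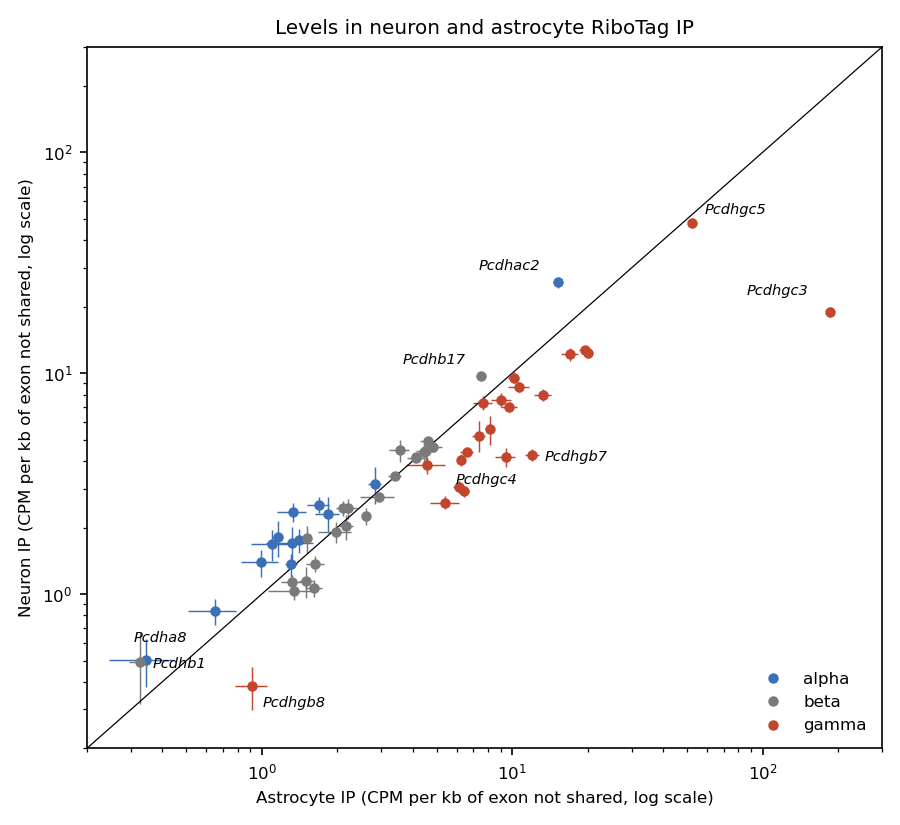
Level per kb of unshared exon in neuron IP against astrocyte IP for 57 genes, both axes on a log scale, with bars of 1 SD over 4 libraries and the line of equal level. All gamma points lie below the line and *Pcdhgc3* farthest from it, at 186 against 19.0.

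The inputs of these cohorts also differed. Of the 14 alpha genes 11 passed as higher in neuron cohort input and 1 as lower, with a median log2(FC) of 0.51. Of 22 gamma genes 3 were higher and 11 lower, with a median of -0.20. Over all 58 genes 17 were higher and 15 lower by adjusted p, against 26.4% and 27.5% of the 15944 genes tested. *Pcdhgc3* was higher in neuron cohort input by 0.37 ± 0.04, which is the opposite of the IPs, and the astrocyte markers summed to more there too, 5135 to 5467 CPM against 2844 to 3113.

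*Pcdha4* was the 1 gene called between the inputs, where 2.7% of all genes were called lower and 4.75% higher. It had 6 to 16 counts per neuron cohort input and 12 to 33 per astrocyte cohort input, or 0.105, 0.183, 0.217 and 0.285 CPM against 0.546, 0.575, 0.369 and 1.195. The libraries did not overlap, with a log2(FC) of -1.77 ± 0.41 (adjusted p = 0.0033 by edgeR). The IPs differed likewise, at 0.187, 0.334, 0.181 and 0.341 CPM in neuron IP against 0.463, 0.559, 0.668 and 1.00 in astrocyte IP, with a log2(FC) of -1.37 ± 0.31. Against its own input *Pcdha4* did not pass in either cohort (0.38 ± 0.35 and -0.05 ± 0.37), so its difference lay between the cohorts in input and IP alike.

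Each IP was therefore also set over its own input, and the difference of these ratios was tested with an interaction term. This takes out only what the input and IP of a cohort share, the inputs enter with their own differences, and sex, cohort and virus still cannot be told apart from cell type. At an adjusted p under 0.05, the ratio of IP over input was lower in neurons for 17 genes and higher for 4, against 34.3% and 35.8% of the 16371 genes tested. By this interaction, lower or higher in neurons refers to that ratio relative to astrocytes, not to a level. *Pcdhgb6*, among the lower genes, was itself enriched in neuron IP over input, at 0.58. Of the 17, 13 were gamma genes, and 0 gamma genes were higher. With a replicate block, which pairs IP and input, the count rose from 21 to 32 genes, 20 lower and 12 higher, and included all 21. Over all genes 74.9% passed in that fit, 50.9% of those as higher, and 70.1% passed without the block. In that paired test 15 gamma genes were lower and 3 higher, the A-type genes *Pcdhga9* at 0.23, *Pcdhga2* at 0.20 and *Pcdhga10* at 0.15.

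*Pcdhgc3* had the largest difference, -3.64 ± 0.05 on the log2 scale (edgeR's quasi-likelihood test, adjusted p = 1.3e-17). *Pcdhgc4* followed at -1.39 ± 0.11, *Pcdhgb8* at -1.38 ± 0.27, *Pcdhgb4* at -1.27 ± 0.09 and *Pcdhga12* at -1.01 ± 0.13. All 7 B-type genes were among the 13 (6 with total counts), from -0.20 for *Pcdhgb6* to -1.38, while of the 12 A-type genes 4 were. Of these B-type genes *Pcdhgb2* did not pass under 12 of 22 alternatives and *Pcdhgb6* under 8. *Pcdhgc5* did not pass, at 0.06 ± 0.06, so 2 of the 3 C-type gamma genes passed.

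*Pcdhac2* was the 1 alpha gene that passed, at 0.33 ± 0.08 (adjusted p = 0.00095 by edgeR), and the alpha median was 0.00. Beta genes passed in both directions, 4 lower and 3 higher, and 4 and 6 with total counts. *Pcdhb3* at -0.60 ± 0.15, *Pcdhb2* at -0.49 ± 0.16, *Pcdhb4* at -0.45 ± 0.18 and *Pcdhb5* at -0.39 ± 0.13 were lower in neurons. Of these *Pcdhb4* did not pass under 6 of 22 alternatives. *Pcdhb13* at 0.68 ± 0.15, *Pcdhb20* at 0.34 ± 0.10 and *Pcdhb17* at 0.23 ± 0.08 were higher. *Pcdhb1*, at the start of the cluster, had the highest value of the beta genes, 0.88 ± 0.47, and did not pass.

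The SAPAP3 cohort gave a second set of IP and input libraries, in older mice of another substrain. *Pcdhgc3* was again the gene with the highest enrichment. In WT mice it measured 339, 411, 436 and 423 CPM in IP and 85.4, 87.4, 83.4 and 85.6 in input. The groups were far apart, with a log2(FC) of 2.20 ± 0.08 (edgeR's quasi-likelihood test, adjusted p = 1.8e-07). *Pcdhgc3* made up 35.4 to 40.1% of gamma counts in WT IP and 14.9 to 15.6% in input. In KO mice it measured 405, 552, 469 and 393 CPM against 84.2, 103, 84.1 and 81.9, with a log2(FC) of 2.37 ± 0.12.

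Of the 14 alpha genes 7 in WT and 6 in KO mice, or 50% and 42.9%, passed as lower in the IP of this cohort and 0 as higher. Over all genes 34.6% in WT and 35.9% in KO mice passed as lower, and 32.7% and 36.1% as higher. The alpha sum was 73.5 to 76.9 CPM in WT IP and 76.6 to 107 in input, where input replicate 1 lay within the IP range, and 64.4 to 95.2 against 99.2 to 114 in KO mice. The neuronal markers were lower in the same IPs, 7 of 9 past the test with a median of -0.71 in WT and 9 of 9 with -0.78 in KO mice, and their part in the alpha values was not tested. *Pcdhac1*, a C-type alpha gene, measured 2.15, 2.87, 2.03 and 2.21 CPM in WT IP against 3.46, 5.88, 4.61 and 4.75 in input. No libraries overlapped, and the log2(FC) of -1.05 ± 0.18 (adjusted p = 0.00062 by edgeR) stood at the limit and did not pass it under 2 of 14 alternatives. In KO mice its value was -0.78 ± 0.19. *Pcdhac2* stood at -0.35 ± 0.10 in WT and -0.43 ± 0.11 in KO mice.

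In WT mice 2 genes were called, *Pcdhgc3* higher and *Pcdhac1* lower, where 10.9% of the 15587 genes tested were called higher and 12.1% lower. By adjusted p alone 21 genes were higher and 9 lower, against 32.7% and 34.6% of all genes, and with total counts the split was 14 higher and 18 lower. Of the alpha genes 13 had a negative value, with a median of -0.36. Of 22 gamma genes 18 passed as higher and 1 as lower, with a median of 0.44. The gamma gene that passed as lower was *Pcdhgb8* at -0.78 ± 0.15. Of the beta genes 3 passed as higher and 1 as lower, turning to 1 and 7 with total counts. Their median was 0.12, from *Pcdhb19* at -0.28 to *Pcdhb14* at 0.40 ± 0.08. Without input replicate 3 or IP replicate 2 the count of called genes was 4.

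In KO mice 2 genes were called higher and 0 lower, *Pcdhgc3* and *Pcdhgb7* at 1.10 ± 0.11, where 12.3% of the 15583 genes tested were called higher and 11.5% lower. With total counts only *Pcdhgc3* was called. By adjusted p alone 22 genes were higher and 8 lower, against 36.1% and 35.9% of all genes, and with total counts 14 and 17. These were again gamma genes upward, 19 of 22, and alpha genes downward, 6 of 14. The beta split turned with the scaling here too, from 3 higher and 2 lower to 0 and 7. *Pcdhgc4* had 0.98 ± 0.10 in WT and 0.88 ± 0.10 in KO mice, below the fold limit in both. In WT mice it was called higher under 4 of 14 alternatives, and *Pcdha8*, at -0.98 ± 0.26, was called lower under 5.

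The last comparison asked whether the loss of SAPAP3, a postsynaptic scaffold protein encoded by *Dlgap3*, goes with a change in these genes. *Xist* reads ran from 0 to 7418 in the SAPAP3 cohort and from 0 to 10787 in bulk, so sex was not uniform in either. With *Xist* as a covariate 0 of the 58 genes passed in input and 0 in IP. *Dlgap3* itself fell to 158 to 193 CPM in KO input from 358 to 469 in WT input, with a log2(FC) of -1.19 ± 0.10 (edgeR's quasi-likelihood test, adjusted p = 0.007). In IP it stood at 55.2 to 95.0 CPM against 168 to 225 (-1.40 ± 0.17, adjusted p = 0.028 by edgeR). In bulk RNA it stood at 136 to 157 CPM against 228 to 377, without overlap, but its value of -1.14 ± 0.14 had an adjusted p of 0.32.

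None of the 58 clustered protocadherin genes passed an adjusted p of 0.05 between KO and WT by edgeR, and the counts were 0 in input, 0 in IP, 0 in bulk striatum and 0 for the difference of IP over input. Few genes of any kind did, 0.00641% of those tested in input, 0.0263% in IP, 0% in bulk and 0% in the interaction. DESeq2 and limma-voom also called 0 of the 58 in each. At an unadjusted p under 0.05 by edgeR there were 1, 3, 1 and 0 of the 58 genes. The share of all genes under that limit was not counted, so no result is read from these counts.

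*Pcdhgc3* differed between KO and WT by 0.05 ± 0.07 in input, 0.18 ± 0.12 in IP and 0.01 ± 0.06 in bulk (log2(FC) ± SE, n = 4), and its libraries overlapped in all 3. *Pcdhac2* had 0.14 ± 0.10, 0.03 ± 0.12 and 0.04 ± 0.12. The smallest p-value of all was that of *Pcdhb14*, a beta gene, in IP, at -0.34 ± 0.09 with an adjusted p of 1 by edgeR. *Pcdha9* at 0.43 ± 0.16 and *Pcdhga11* at 0.14 ± 0.06 were the others under an unadjusted 0.05 in IP, *Pcdha6* at 0.42 ± 0.17 in input and *Pcdhga3* at 0.21 ± 0.09 in bulk, all named after their values were seen. The interaction of genotype with IP over input was 0.13 ± 0.15 for *Pcdhgc3* and -0.11 ± 0.17 for *Pcdhac2*. A p above the threshold does not show that the genes were equal in both genotypes.

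**Figure D5:**
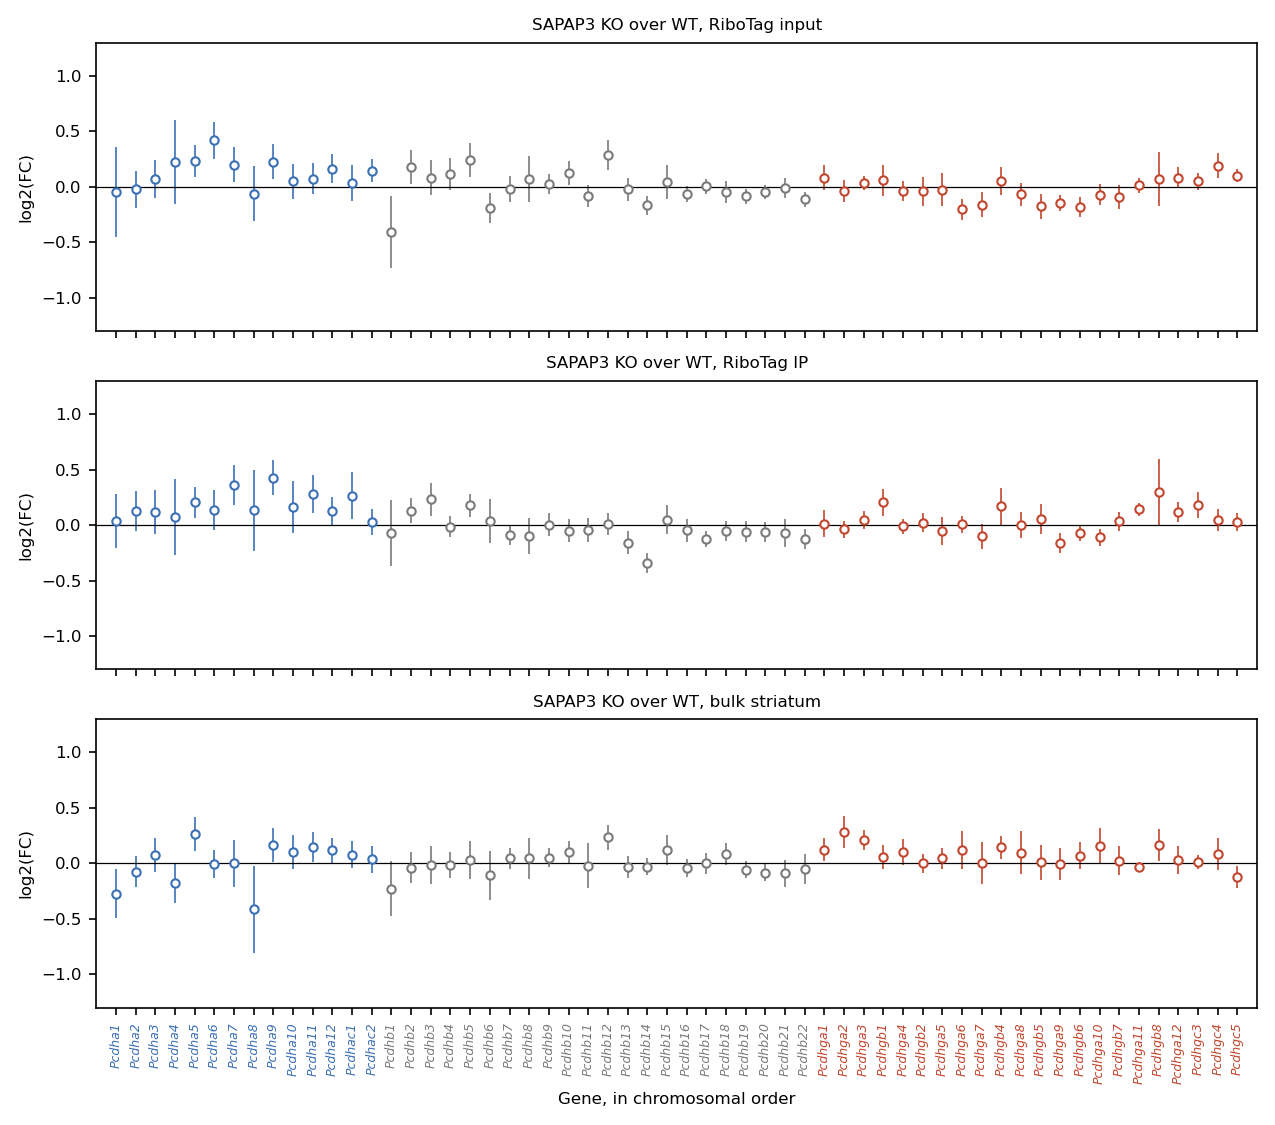
Log2(FC) of SAPAP3 KO over WT for the 58 genes in chromosomal order (blue alpha, grey beta, red gamma) in RiboTag input, RiboTag IP and bulk striatum, with bars of 1 SE. All points are open, since none passed an adjusted p of 0.05, and *Pcdhgc3* lies at 0.05, 0.18 and 0.01.

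Genes that act on or with the clusters were also examined. Of 12 tested regulators 7 passed as higher and 1 as lower in astrocyte IP over input, and 6 as higher and 5 as lower in neuron IP over input. Over all genes the shares were 39.2% and 41.2% in astrocyte IP and 35.5% and 35.9% in neuron IP, so the neuron split lay nearer to that of all genes. The cohesin subunits *Rad21* (0.87 ± 0.05), *Stag2* (0.87 ± 0.06) and *Smc3* (0.67 ± 0.04) were higher in astrocyte IP. By the interaction 8 of the 12 regulators were lower in neurons and 3 higher, against 34.3% and 35.8% of all genes. *Rad21*, *Stag2* and *Smc3* were lower, at -0.71 ± 0.07, -0.78 ± 0.07 and -0.30 ± 0.06. *Ctcf*, which encodes the factor that binds protocadherin promoters, was higher at 0.18 ± 0.05. The DNA methyltransferase gene *Dnmt3b* was lower in neuron IP, at -1.94 ± 0.25, as was *Cdca7*, which is linked to DNA methylation, at -0.81 ± 0.16. *Smchd1*, a silencing factor, was higher in both IPs, at 0.38 ± 0.04 and 0.15 ± 0.04. None of the 12 passed between KO and WT.

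Of 22 partners, which encode adhesion, signalling and proteolysis partners of protocadherins, 10 were higher and 7 lower in neurons by the interaction, against 35.8% and 34.3% of all genes, which is a similar share. Members of the WAVE actin-regulating complex divided. *Cyfip1* stood at -1.77 ± 0.06, *Wasf2* at -1.60 ± 0.09 and *Wasf3* at -1.25 ± 0.08, whereas *Brk1* at 1.03 ± 0.06, *Wasf1* at 0.80 ± 0.13 and *Cyfip2* at 0.71 ± 0.08 were higher. *Ptk2b*, a focal adhesion kinase family gene, had 1.43 ± 0.06. In astrocyte IP over input 9 of the 22 passed as higher and 9 as lower, and *Cyfip1* was the 1 called higher, at 1.52 ± 0.04. In neuron IP over input 10 were higher and 5 lower.

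Of 12 protocadherins outside the clusters, which are single genes elsewhere in the genome, 7 were lower and 1 higher in neurons by the interaction, against 34.3% and 35.8% of all genes. *Pcdh18* at -1.17 ± 0.16, *Pcdh20* at -1.12 ± 0.13 and *Pcdh8* at -0.78 ± 0.15 were lower, and *Pcdh11x* was the 1 higher, at 0.43. *Pcdh15*, a tip-link cadherin of hair cells, was also lower, at -1.31 ± 0.15, and fell in neuron IP over input by 1.55 ± 0.13. The 3 markers of oligodendrocyte precursors were lower in both, with medians of -2.61 and -2.49, and their part in the *Pcdh15* values was not tested. In astrocyte IP over input 7 of 11 passed as higher and 2 as lower, against 39.2% and 41.2% of all genes, with a median of 0.47. None of them, and none of the 22 partners, passed between KO and WT.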

How the data were processed

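The authors deposited raw counts per gene symbol for 24060 symbols (whole numbers, not normalized), with STAR, HTSeq and mm10 named in the submitters' processing notes. Annotation, strand setting and the handling of multiply aligned reads are not given in the sources used here. By HTSeq's usual rules reads in shared exons go to no gene, so these counts may cover mainly the first exons. Of the members, 17 share over 5% of their 75-base stretches with other places on the chromosome, at most 16.4%. They are 11 alpha, 6 gamma and 0 beta genes, so part of the reads of these alpha and gamma genes may be uncertain. Members and lists were chosen with earlier results of these data known. edgeR 4.0.16 (filterByExpr, TMM, glmQLFit, glmQLFTest, R 4.3.3) was fitted on all genes with the compared groups only and Benjamini-Hochberg adjustment over all genes tested. IP over input, IP against IP and input against input were called at a log2(FC) beyond 1 in either direction with adjusted p under 0.05, interactions and genotypes at adjusted p alone. All 58 members passed the filter in every fit. SE is that of the log2(FC). Lengths are from RefSeq GRCm38.p6. Libraries of a group carry separate animal numbers, and 4 per group set the precision. Named genes are drawn from the 3 with the most reads per cluster, the C-type genes and, per comparison, the called members and the extremes of each cluster. Not every gene that this rule picks is printed. Other members are named where a small count singles them out, chosen after their values were seen. IP and input were paired by the animal that the labels give. In the neuron cohort the labels give IP and input different animal numbers, and the number in the title was used. Over 11762 genes, deviations of same-numbered libraries correlated at 0.45, 0.65, 0.60 and 0.51 on average (astrocyte, neuron, WT and KO cohorts) and at least at 0.25. The tests were tried on simulated data. Alternatives were DESeq2 1.42.0 (size factors and Wald test), limma-voom (limma 3.58.1), total-count scaling, no filter, the replicate block, *Xist* as a covariate, merged exon lengths and leaving out each library.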

Additional observations from a re-analysis of the deposited data

Results flagged for a closer look

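For 21 genes the enrichment of neuron IP over its input differed from that of astrocyte IP over its input, tested by the interaction term of edgeR (log2 difference, neuron minus astrocyte). Beside those printed above (*Pcdhgc3* -3.64, *Pcdhgc4* -1.39, *Pcdhgb8* -1.38, *Pcdhgb4* -1.27, *Pcdhga12* -1.01, *Pcdhb3* -0.60, *Pcdhb2* -0.49, *Pcdhb4* -0.45, *Pcdhb5* -0.39, *Pcdhgb6* -0.20, *Pcdhb13* 0.68, *Pcdhb20* 0.34, *Pcdhac2* 0.33 and *Pcdhb17* 0.23), these were *Pcdhgb7* at -0.89, *Pcdhgb5* at -0.82, *Pcdhgb1* at -0.79, *Pcdhga11* at -0.59, *Pcdhga5* at -0.43, *Pcdhga7* at -0.38 and *Pcdhgb2* at -0.22.

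In 190 groups of 4 values of 16 genes and the 3 cluster sums, 15 single libraries lay apart from the other 3 of their group by more than the critical 95% value of Dixon's range ratio for 4 values, where chance flags about 1 in 20. Most were input or bulk libraries. WT input replicate 1 of the SAPAP3 cohort had 3 such values. *Pcdhac2* measured 37.6 CPM there (others 50.9 to 52.6), *Pcdha8* 2.53 (others 1.63 to 1.71) and the alpha cluster sum was 76.6 (others 102 to 107). In bulk KO replicate 4 *Pcdhac2* was 41.8 (others 50.7 to 52.4), *Pcdhgc5* 91.2 (others 107 to 110) and the gamma cluster sum 505 (others 556 to 567). In bulk WT, *Pcdhgc4* was 7.18 in replicate 3 (others 11.2 to 11.8), and in replicate 4 *Pcdhac1* was 4.41 (others 3.46 to 3.59) and *Pcdhb2* 4.56 (others 3.12 to 3.28). *Pcdhgb8* was 2.52 in bulk KO replicate 3 (others 2.84 to 2.87). *Pcdhgc3* was 103 in KO input replicate 2 (others 81.9 to 84.2) and *Pcdhb2* 3.35 in KO input replicate 4 (others 4.00 to 4.04). In the astrocyte cohort *Pcdhac2* was 38.5 in input replicate 3 (others 35.2 to 35.7), *Pcdhgb5* 16.7 in IP replicate 1 (others 12.9 to 13.3) and *Pcdhga12* 25.7 in IP replicate 2 (others 23.4 to 23.7).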

How the results depend on the processing

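Scaling by total counts gave 2 called genes in place of 5 for astrocyte IP over input and 1 in place of 2 for KO IP over input. It moved the median of all genes by over 0.1 in the 4 IP over input comparisons, to -0.25 (astrocyte), -0.21 (neuron), -0.20 (WT) and -0.21 (KO), and the higher share of all calls from 49.8% to 37.2% (astrocyte), from 47.4% to 36.4% (WT) and from 51.6% to 38.8% (KO). This scaling by its construction shifts all genes of a comparison together. Of the genes that passed, *Pcdhac2* and *Pcdhga2* (astrocyte), *Pcdhb20* (neuron) and *Pcdhgc5* (WT) changed sign with it. With the replicate block, which pairs IP and input by animal or, in the neuron cohort, by title number, the interaction gave 32 genes in place of 21. Of all genes 74.9% passed with the block and 70.1% without. The block moved no other count of calls. Leaving out 1 library gave 2 to 4 genes for WT IP over input (2 with all). Of 3074 values under an alternative for genes that the naming rule picks, 36 lost the call and 11 gained one. In 3 others a gene past the adjusted p changed sign, all with total counts, *Pcdhac2* to -0.030 and *Pcdhb17* from 0.08 to -0.14 in astrocyte IP over input and *Pcdhgc5* to -0.021 in WT IP over input. The remaining 3024 kept their side of the threshold, and 102 of these, none past the adjusted p, changed sign. The median level in neuron IP was 1.76 CPM per kb for alpha and 6.29 for gamma genes, and 0.832 and 3.55 with merged exon lengths. Depth limits *Pcdha4*, *Pcdha8*, *Pcdhgb8* and *Pcdhb1*, which had the fewest reads.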
